A study of Mus musculus with 67 samples.

Results

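Ribosome-bound RNA was set against total RNA of microglia sorted from the brains of mice that had received PBS. The members are all genes that passed a filter on low counts, 11444 of the 24421 genes listed for the experiment, measured in 6 of its 28 libraries. Of these 6, 3 were made from the RNA of sorted cells and 3 from the RNA that came down with HA-tagged ribosomes after the cells had been sorted. In all, the series comprised 67 libraries of mouse brain RNA.

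All 6 libraries came from C57BL/6J mice of genotype CX3CR1CreER/WT RLP22HA/HA that had been treated with tamoxifen by gavage at 4 to 6 weeks of age (4 doses of 5 mg) and then with PBS, the control for LPS. A Cx3cr1 allele carries the tamoxifen-inducible Cre, and in cells with active Cre the last exon of the ribosomal protein gene Rpl22 is exchanged for a copy with an HA tag. The Cx3cr1 driver also acts in border macrophages and in some blood monocytes, so the tag is not restricted to microglia. Cells were enriched on 40% Percoll and sorted as GR1 negative, CD45 intermediate and CD11b positive, a gate that removes neutrophils and CD45-high leukocytes. The pull-down used an anti-HA antibody for 4 h. The labels do not say whether the enzymatic digest was used for these cells, nor how many cells went into a library. The design text gives each replicate as a separate mouse. It also states that sorting and pull-down used the same animal, without saying that the replicate number marks the animal.

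Messenger RNA under translation carries ribosomes and lies in the cytoplasm, whereas many long noncoding RNAs, unspliced transcripts and transcripts with retained introns stay in the nucleus. A ribosome pull-down takes up the first kind and leaves most of the second behind, and it also keeps whatever sticks to the antibody and the beads. Microglia are the resident macrophages of the brain and are known for complement, lysosomal and antigen presentation genes. They are also known to switch on early-response genes when tissue is dissociated. Genes of splicing regulators are known for transcripts with retained introns or poison exons, which are held in the nucleus or degraded.

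Totals were 668194 to 1020518 counts in the sorted-cell libraries and 288090 to 669508 in the pull-downs, with replicate 2 of the pull-downs the lowest. The labelled cell type was checked with 25 microglial genes, whose summed level was 81600 to 83260 CPM (reads scaled to library size and composition) in sorted cells, while the pull-downs held 149500 to 162100. No gene of the 25 was at 0 in either group. Rpl22, the tagged gene, was at 52.3, 87.2 and 75.7 CPM in sorted cells and at 91.9, 107 and 72.5 in pull-downs, and the groups overlapped (log2 fold change 0.32 ± 0.25, adjusted p = 0.34). An IgG1 pull-down from sorted cells was not analysed here, and the IgG1 libraries used here came from whole brain. The stated antibody amounts were not matched, with 125 µg for anti-HA pull-downs and 1 µg for IgG1.

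Of the 11444 genes, 3645 (31.9%) were called at an adjusted p under 0.05 with edgeR's quasi-likelihood test. In pull-downs 1905 (16.6%) were higher and 1740 (15.2%) lower than in sorted cells, and the median log2 fold change over all genes was 0.04. Fold changes below are pull-down minus sorted cells with their standard error (SE), and n = 3 in each group. The split depends on the scaling. With libraries scaled to their total counts the median of all genes was −0.20, 1203 genes were higher and 2622 lower, so that 31.5% of the calls were higher against 52.3% in the main fit. The direction of small fold changes is therefore relative to that median. Noncoding RNA genes were called lower more often, 54 of 192 (28.1%), and higher in 10 (5.21%), with a median of −0.36. Protein-coding genes had 1671 of 11191 lower (14.9%) and 1890 higher (16.9%), with a median of 0.05.

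**Figure D1:**
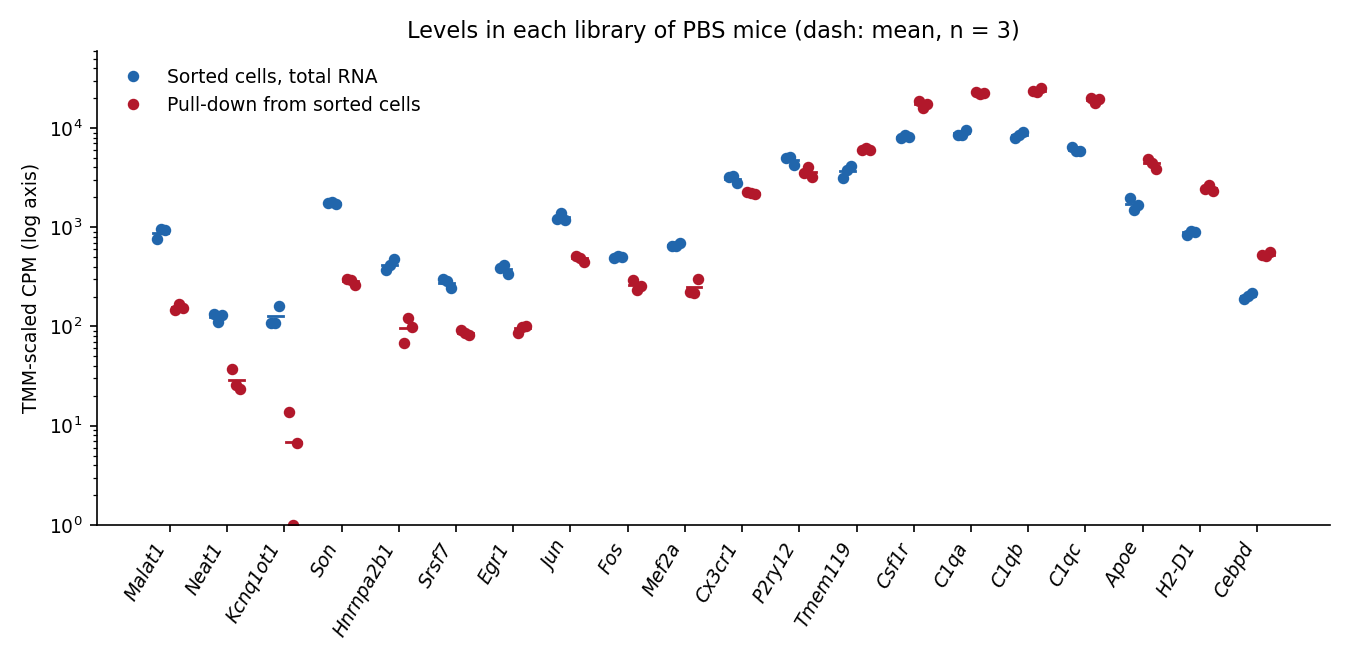
Level of 20 genes in each library on a log axis, in CPM scaled for library composition. Blue points are the 3 sorted-cell libraries, red points the 3 pull-downs and dashes the group means. The nuclear RNAs, Son, Hnrnpa2b1, Srsf7, Egr1, Jun, Fos and Mef2a lie lower in pull-downs, and Csf1r, C1qa, C1qb, C1qc, Apoe, H2-D1 and Cebpd lie higher. Kcnq1ot1 had no read in pull-down replicate 2, drawn on the lower edge of the axis.

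Of 10 long noncoding RNAs that stay in the nucleus, 5 were lower in the pull-downs, 1 was higher and 4 were not called. The plot of single libraries shows Malat1, a long noncoding RNA of nuclear speckles, at 764, 952 and 935 CPM in sorted cells and at 147, 170 and 154 in pull-downs. Neat1, the scaffold of nuclear paraspeckles, was at 134, 112 and 130 CPM against 37.1, 25.9 and 23.6. Kcnq1ot1, an antisense RNA that silences genes of an imprinted cluster, was at 109, 108 and 161 CPM against 13.7, 0 and 6.75. For each of these RNAs every pull-down lay below every sorted-cell library. The log2 fold changes were −2.50 ± 0.24 for Malat1 (adjusted p = 9.36e-11), −2.11 ± 0.26 for Neat1 (adjusted p = 5.67e-09) and −3.96 ± 0.38 for Kcnq1ot1 (adjusted p = 3.23e-12). The others that were lower were Firre (−2.85) and Ftx, which act at the X chromosome. Ftx had 24 reads in sorted cells and 1 in pull-downs, a ratio of 0.0766 (exact 95% interval 0.00186 to 0.470). The median of the list was −1.05, or −2.31 without the genes that had 3 reads or fewer in both groups. The exception, Snhg11, was at 2.75, 4.15 and 4.21 CPM in sorted cells and at 9.78, 11.1 and 16.9 in pull-downs (1.83 ± 0.63, adjusted p = 0.0204), and its mean in whole-brain IgG1 pull-downs was 107. Its call was lost with total-count scaling, in a fit on the 14 sorted libraries, and without sorted-cell replicate 1 or pull-down replicate 3. Xist, which acts in the nucleus of female cells, had 1 read in sorted cells and 0 in pull-downs and was not tested.

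Of 11 host genes of small nucleolar RNAs 4 were lower and none higher, with a median of −1.29. Gas5 was at 54.1, 38.8 and 30.8 CPM in sorted cells and 13.7, 14.8 and 11.8 in pull-downs (−1.68 ± 0.38, adjusted p = 4.88e-04). Snhg17 (−2.25), Snhg1 (−1.39) and Snhg8 (−1.29) were the others. The small nucleolar RNAs themselves were measured at only 3 genes, all lower. Snord104 was at 60.5, 73.4 and 53.3 CPM against 13.7, 7.40 and 13.5 (−2.33 ± 0.37, adjusted p = 1.14e-06). Snora78 had 18 reads in sorted cells and 1 in pull-downs, a ratio of 0.102 (exact 95% interval 0.00245 to 0.647). Snora33 had 19 and 1, a ratio of 0.0967 (0.00233 to 0.609). Only 1 of the 3 was called without pull-down replicate 3, with DESeq2, with a minimum count of 30 and in fits on fewer libraries. Snora78 was also lost without sorted-cell replicate 2 or pull-down replicate 1, and Snora33 without sorted-cell replicate 3 or pull-down replicate 2. Snora78 overlaps Rps2, whose messenger RNA was higher in pull-downs (1.50 ± 0.37, adjusted p = 0.00308). It also overlaps Snhg9, which was not tested, so the locus could not be set against every gene that holds it.

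MicroRNA genes were measured through long RNA reads, so a count at such a gene is RNA of the locus and not the mature microRNA. Of the 18 tested, 2 were lower and none higher, with a median of −0.19. Their mature sequences from RefSeq (GRCm38.p6) are printed with the seed, bases 2 to 8, in capitals, to show that the pair share no seed. The first lies at chr1:153899989-153900009 on the plus strand and the second at chr8:8690093-8690114 on the minus strand.
mmu-miR-8114: uCACCCAUcuccucuccgccu
mmu-miR-7654-3p: cGAGCGGGagcgcgccucgucc
Mir8114 had 41 reads in sorted cells and 1 in pull-downs, a ratio of 0.0448 (exact 95% interval 0.00111 to 0.264). It overlaps Glul, the glutamine synthetase gene, which was at 760, 759 and 849 CPM in sorted cells and 475, 429 and 718 in pull-downs (−0.53 ± 0.19, adjusted p = 0.0261). The call for Glul was lost with DESeq2's size factors, with DESeq2, without the count filter, without sorted-cell replicate 3 and without pull-down replicate 1 or 2. Mir7654 was at 16.5, 22.2 and 43.5 CPM against 1.96, 0 and 8.43 (−2.58 ± 0.61, adjusted p = 7.79e-04). It overlaps Arglu1, a splicing-related gene that was itself lower, at 326, 338 and 419 CPM against 76.2, 96.2 and 69.1 (−2.20 ± 0.22, adjusted p = 9.10e-12). The strand setting of the counting is not given in the sources used here, so reads of a locus and of a gene that overlaps it cannot be told apart.

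Messenger RNAs of splicing regulators formed the group with the largest share of lower genes among the protein-coding lists with at least 10 members tested. Of 38, 25 were lower and 3 higher, with a median of −1.26. Son, a scaffold protein of nuclear speckles, was at 1757, 1788 and 1734 CPM in sorted cells and at 301, 292 and 265 in pull-downs, the smallest p of all genes (−2.62 ± 0.18, adjusted p = 6.49e-18). Hnrnpa2b1, which binds nascent transcripts, was at 369, 413 and 481 CPM against 68.4, 122 and 99.5 (−2.16 ± 0.21, adjusted p = 2.14e-12). Rbm25, a regulator of splice site choice, was at 228, 252 and 252 CPM against 70.4, 59.2 and 43.8 (−2.09 ± 0.21, adjusted p = 1.03e-11). At each of these genes every pull-down lay far below every sorted-cell library.

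The lower splicing genes cover several families. Among SR proteins Srsf11 (−1.72), Srsf7 (−1.67), Srsf6 (−1.63), Srsf5 (−1.45) and Srsf10 (−1.36) were lower, together with the related Tra2a (−1.28) and Tra2b (−1.25). The kinases that phosphorylate SR proteins, Clk1 (−1.68), Clk2 (−1.45) and Clk4 (−1.41), were lower too. Clk1 was at 355, 381 and 376 CPM in sorted cells and 113, 141 and 101 in pull-downs. The deposited counts are per gene over exons and do not separate isoforms. The 3 genes that were higher were Srsf9, Rsrp1 and Ptbp1, a repressor of neuronal exons. Srsf9 was at 164, 140 and 158 CPM against 301, 311 and 297 (0.97 ± 0.19, adjusted p = 8.08e-05), so an SR protein gene in the same libraries lay on the other side.

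Beyond these lists, the 12 lowest genes with at least 50 CPM in sorted cells and a symbol that is not a predicted gene were Kcnq1ot1, BC005537, Phf20l1, Ssbp1, Nav3, Slc38a6, Zfp950, Ttc14, Tex10, Zmym6, Mdm4 and Son, from −3.96 to −2.62. Ttc14 was at 169, 191 and 198 CPM in sorted cells and 17.6, 33.3 and 33.7 in pull-downs (−2.74 ± 0.25, adjusted p = 1.07e-12). Mdm4, an inhibitor of p53, was at 115, 130 and 156 CPM against 19.6, 29.6 and 18.6 (−2.63 ± 0.32, adjusted p = 5.67e-09). Zinc finger genes named Zfp, a large family of DNA-binding proteins, were lower in 58 of 226 and higher in 16, with a median of −0.54. Without pull-down replicate 3 these counts were 38 and 10.

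The span of the gene on the chromosome moved with these calls. Span, taken from RefSeq (GRCm38.p6) for 99.8% of the genes, includes introns. Its median was 14.2 kb for genes called higher, 38.3 kb for genes called lower and 23.9 kb for all genes tested. In the quintile of genes with the shortest span 27.8% were higher and 7.79% lower, in the fourth 9.94% were higher and 22.6% lower, and in the longest 11.9% were higher and 19.8% lower, so the shares turned back at the longest genes. The shares moved in 1 direction through all quintiles among the 5274 genes with a span that were higher in sorted cells than in whole-brain IgG1 pull-downs of the LPS mice, libraries outside the comparison. That choice favours genes with a high level in sorted cells and left out the neuronal list. Of all 5289 genes so chosen, 10.9% were higher and 26.6% lower, so lower calls prevailed in the subset as a whole. There the share of lower genes rose through the quintiles as 15.2%, 18.3%, 25.3%, 32.9% and 41.5%, and the share of higher genes fell from 21.7% to 3.80%. The median log2 fold change went from 0.07 in the shortest quintile to −0.67 in the longest. Across all genes the correlation of log span with fold change was weak (Pearson r −0.07, Spearman rho −0.16), and in the subset it was −0.23 and −0.29. These describe genes of the same libraries, which are not independent.

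**Figure D2:**
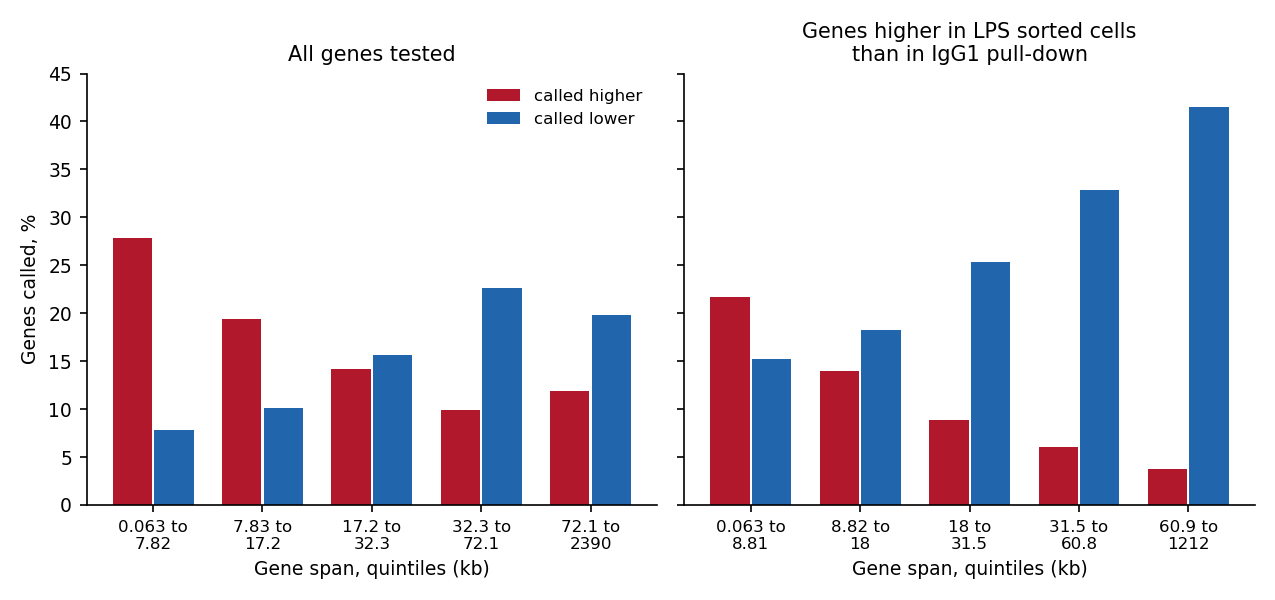
Share of genes called higher (red) or lower (blue) in pull-downs, by quintiles of gene span in kb. The 11421 tested genes with a span stand on the left and, on the right, the 5274 of them that were higher in sorted cells than in IgG1 pull-downs of LPS mice, where the lower share runs from 15.2% to 41.5%.

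Early-response genes, which are transcribed within minutes of a stimulus, were lower in 12 of 42 and higher in 4. Egr1, a zinc finger factor, was at 386, 413 and 336 CPM in sorted cells and 86.0, 99.9 and 101 in pull-downs (−1.99 ± 0.22, adjusted p = 3.15e-10). Jun, a subunit of the AP-1 factor, was at 1215, 1383 and 1187 CPM against 518, 489 and 447 (−1.38 ± 0.17, adjusted p = 1.60e-09). Fos, its partner, was at 486, 515 and 499 CPM against 297, 233 and 253 (−0.93 ± 0.22, adjusted p = 9.93e-04). Every sorted-cell library lay above every pull-down for these genes, while their reads in pull-downs stayed well above 0. Btg1 (−2.24), Fosb (−1.86), Klf4 (−1.80), Zfp36l2 (−1.71), Zfp36l1 (−1.25), Dusp1 (−0.88), Btg2 (−0.73), Dusp6 (−0.54) and Klf6 (−0.45) were the other lower ones.

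Not all early genes followed. Zfp36, a decay factor of cytokine messages, was at 622, 623 and 576 CPM in sorted cells and 778, 585 and 634 in pull-downs, with overlap (0.14 ± 0.18, adjusted p = 0.591). The 4 that were higher were Gadd45g, Ier5l, Id3 and Npas4. Npas4, an early gene of neurons, had no read in sorted cells and 5 in pull-downs, at least 3.06-fold higher when the sorted cells are set to a floor of 3 reads in all. None of these 4 was among the 27 early genes that were higher in LPS sorted cells than in IgG1, where 11 were lower and none higher. Such a choice of genes favours those with a high level in sorted cells. The count of higher early genes was 1 or 2 without any single one of sorted-cell replicates 1, 2 and 3 and pull-down replicates 1 and 3. The median over the 42 genes was 0.16, and −0.09 with total-count scaling.

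Transcription factors of microglia were split. Of 28, 11 were lower and 5 higher, with a median of −0.31. Mef2a was at 642, 646 and 697 CPM in sorted cells and 225, 218 and 304 in pull-downs (−1.39 ± 0.19, adjusted p = 3.72e-08). Mitf (−1.36), Smad4 (−0.94), Fli1 (−0.94), Zeb2 (−0.93), Maf (−0.75), Ets1 (−0.73), Bhlhe41 (−0.72), Elf1 (−0.69), Bach1 (−0.65) and Sall1 (−0.46) were the others. Sall1, the factor that marks microglia among macrophages, was at 451, 443 and 472 CPM against 379, 311 and 300. The C/EBP factors lay on the other side, Cebpa (1.10), Cebpb (1.30) and Cebpd (1.40), all of them genes without introns. Cebpd was at 189, 202 and 216 CPM against 520, 514 and 558 (1.40 ± 0.19, adjusted p = 4.63e-08). Spi1, which encodes the macrophage factor PU.1, was at 521, 519 and 394 CPM against 979, 788 and 649 (0.75 ± 0.20, adjusted p = 0.00258). The lower count was 7 without sorted-cell replicate 1 or without pull-down replicate 2.

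Of 32 NF-kB and cytokine genes 4 were lower and 5 higher, no more than the shares over all genes (15.2% lower and 16.6% higher). Rel, an NF-kB subunit, was at 26.6, 24.9 and 49.1 CPM in sorted cells and 3.91, 3.70 and 8.43 in pull-downs (−2.48 ± 0.48, adjusted p = 4.75e-05), and Nfkbiz (−1.71), Il1a (−1.31) and Birc3 (−0.92) were lower as well. Sod2, the mitochondrial superoxide dismutase, was at 23.8, 27.7 and 39.3 CPM against 99.7, 107 and 101 (1.78 ± 0.25, adjusted p = 8.17e-08), and Nfkbib (1.12), Gpr84 (1.10), Cd14 (0.85) and Rela (0.70) were higher. Neither Tnf (−1.01, adjusted p = 0.34) nor Il1b (0.51, adjusted p = 0.58) passed the test, with groups that overlapped and 38 and 25 reads in sorted cells. Of 18 chemokine genes 4 were higher and 2, Ccl2 and Ccl3, lower. Ccl3 was at 153, 127 and 115 CPM against 58.7, 92.5 and 57.3 (−1.003 ± 0.384, adjusted p = 0.0483). The lower count was 0 without sorted-cell replicate 1, pull-down replicate 1 or pull-down replicate 3 and 1 without sorted-cell replicates 2 or 3. The higher count was 1 without sorted-cell replicate 1, pull-down replicate 1 or pull-down replicate 3 and 2 without sorted-cell replicate 3.

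Interferon-stimulated genes were lower in 7 of 29 and higher in 3, with a median of −0.11. The lower ones were Ddx60, Mx1, Xaf1, Trim30a, Oas2, Mx2 and Stat2, and the higher ones Irf9, Bst2 and Isg15. Mx1, an antiviral GTPase, was at 33.0, 29.1 and 25.2 CPM in sorted cells and 7.82, 7.40 and 5.06 in pull-downs (−2.15 ± 0.48, adjusted p = 3.47e-04). Bst2, which tethers viral particles, was at 172, 141 and 156 CPM against 328, 270 and 329 (0.99 ± 0.19, adjusted p = 4.29e-05). Ddx60 had 84 reads against 3, a ratio of 0.0656 (exact 95% interval 0.0133 to 0.199). The lower count was 4 without sorted-cell replicate 1.

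Genes that mark microglia were higher in 13 of 25 and lower in 5, with a median of 0.64. The 3 chains of complement C1q led them. C1qa was at 8530, 8503 and 9466 CPM in sorted cells and 23220, 22040 and 22730 in pull-downs (1.36 ± 0.21, adjusted p = 6.37e-07). C1qb was at 7838, 8401 and 9033 CPM against 23390, 22890 and 25240 (1.50 ± 0.26, adjusted p = 2.29e-05). C1qc was at 6404, 5837 and 5798 CPM against 20180, 17670 and 19720 (1.67 ± 0.20, adjusted p = 1.60e-09). The pull-downs lay above the sorted cells without overlap for all 3 chains. Csf1r, the receptor that microglia need to survive, was at 7924, 8571 and 8120 CPM against 18630, 15920 and 17400 (1.08 ± 0.18, adjusted p = 4.94e-06). Selplg (1.26), Olfml3 (1.13), Fcrls (1.04), Trem2 (0.97), Sparc (0.94), Slc2a5 (0.81) and Ctss (0.67) were higher too, as was Tmem119. The C1q chains are secreted proteins, and Csf1r, Selplg and Trem2 are receptors or adhesion proteins of the cell surface. Mertk, Siglech and Cx3cr1, also of the cell surface, were lower, with Mertk the lowest of the list (−1.77).

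Tmem119, a membrane protein used to identify microglia, was at 3102, 3793 and 4124 CPM in sorted cells and 5970, 6281 and 5944 in pull-downs (0.72 ± 0.20, adjusted p = 0.00445). The driver gene Cx3cr1 was on the other side, at 3177, 3260 and 2812 CPM against 2272, 2213 and 2140 (−0.48 ± 0.17, adjusted p = 0.0197). That call was lost with DESeq2's size factors, without the count filter, without sorted-cell replicate 2 and without pull-down replicate 3. P2ry12, the purinergic receptor that senses ATP, was at 4946, 5104 and 4282 CPM against 3515, 4008 and 3204 and did not pass the test (−0.42 ± 0.19, adjusted p = 0.0787), although the groups did not overlap. It passed with total-count scaling, a minimum count of 30 and in fits on the 14 or 6 libraries. Mertk, a receptor for the uptake of dying cells, was lowest, at 84.3, 77.5 and 89.7 CPM against 23.5, 18.5 and 28.7 (−1.77 ± 0.31, adjusted p = 7.69e-06). Aif1 (−0.80), Siglech (−0.64) and Sall1 (−0.46) were the others. The lower count was 3 on leaving out sorted-cell replicate 2 or pull-down replicate 3, and with DESeq2's size factors.

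Lysosomal genes were higher in 18 of 34 and lower in 1, with a median of 0.49. Grn, which encodes progranulin, was at 1848, 1743 and 2111 CPM in sorted cells and 4557, 4215 and 5155 in pull-downs (1.29 ± 0.19, adjusted p = 2.59e-07). Ctsd, the aspartic protease cathepsin D, was at 10500, 11060 and 11770 CPM against 20060, 17460 and 18390 (0.75 ± 0.18, adjusted p = 0.0013). Lgmn (1.18), Ppt1 (1.14) and the secreted cathepsin inhibitor Cst3 (0.81) were also higher. Lamp2, a structural protein of the lysosomal membrane, was the only lower gene, at 254, 235 and 259 CPM against 143, 163 and 128 (−0.81 ± 0.19, adjusted p = 5.18e-04). With total-count scaling 11 of the 34 were higher.

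Genes of antigen presentation were higher in 10 of 19 and lower in 1, with a median of 0.89. H2-D1, a class I heavy chain, was at 839, 923 and 900 CPM in sorted cells and 2455, 2691 and 2309 in pull-downs (1.48 ± 0.18, adjusted p = 3.67e-09). H2-K1 (1.30), Tapbp (1.09), Calr (0.96), H2-T23 (0.93), Tap2 (0.89), Pdia3 (0.75), Psmb8 (0.70) and Tap1 (0.63), parts of peptide supply and loading, were higher too, as was the class II chain H2-Eb1 (1.48). B2m, the light chain that pairs with class I, was at 3808, 4335 and 3442 CPM against 3511, 4297 and 3867, with overlap (0.01 ± 0.18, adjusted p = 0.979). Nlrc5, the activator of class I genes, was the lower one (−1.76 ± 0.56, adjusted p = 0.0122), and it was not called without pull-down replicate 1 or 3.

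Among genes of disease-associated microglia, a state described in neurodegeneration, 6 of 19 were higher and none lower. Apoe, the lipid carrier, was at 1954, 1499 and 1685 CPM in sorted cells and 4881, 4389 and 3900 in pull-downs (1.36 ± 0.22, adjusted p = 2.24e-06). Lgals3 (1.53), Cd68 (1.20), Cd9 (0.90), Lyz2 (0.75) and Cd63 (0.59) were the others. With total-count scaling 4 of the 19 were higher and 2 lower, and the median moved from 0.28 to 0.03. In the fit on the 6 libraries 1 was lower. Apoe is also a gene of astrocytes, with a mean of 2967 CPM in whole-brain IgG1 pull-downs.

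**Figure D3:**
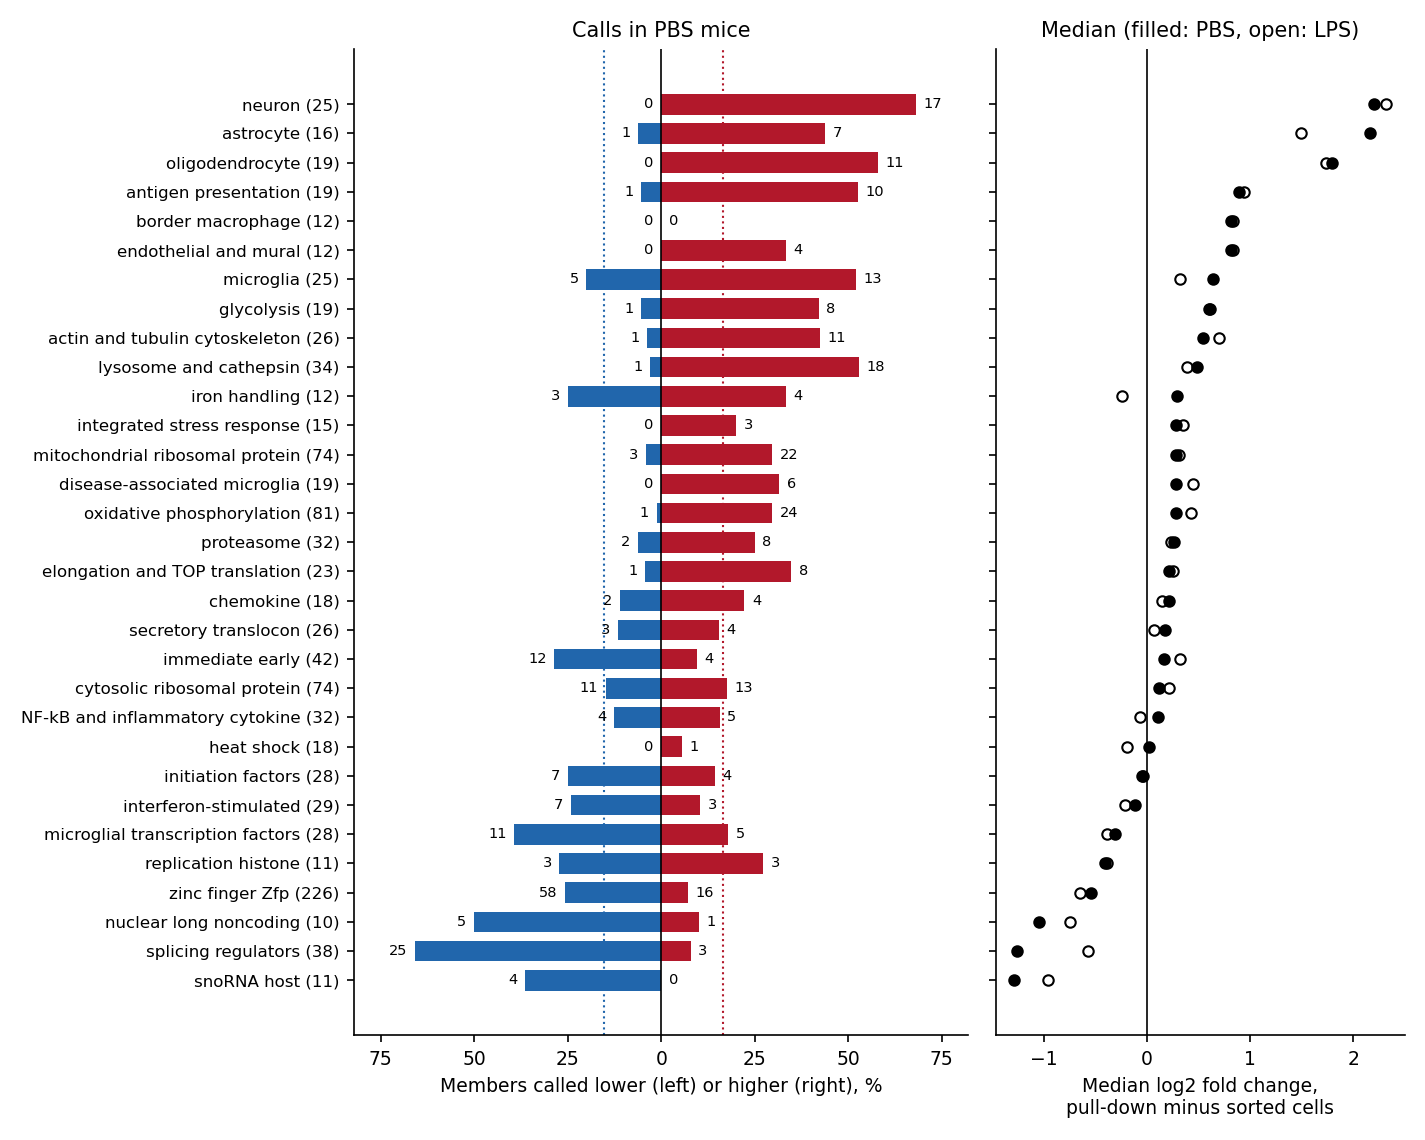
Left, share of the tested members of 31 gene lists called lower (blue) or higher (red) in pull-downs of PBS mice, with the number called beside each bar and the number tested in parentheses. Dotted lines mark the shares over all genes, 15.2% lower and 16.6% higher. Right, median log2 fold change of each list in PBS (filled) and LPS (open) mice, from −1.29 for hosts of small nucleolar RNAs to 2.20 for neuron genes in PBS.

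Calls among cytosolic ribosomal protein genes were near the shares over all genes, 16.6% higher and 15.2% lower. Of 74 cytosolic ribosomal protein genes 13 were higher and 11 lower, with a median of 0.11. Rpl8 was at 612, 545 and 531 CPM in sorted cells and 1425, 1203 and 1356 in pull-downs (1.24 ± 0.18, adjusted p = 1.46e-07), and Rps2 (1.50), Rpl13 (1.14) and Rpsa (1.06) were higher as well. Rpl30 was at 34.8, 42.9 and 54.7 CPM against 9.78, 22.2 and 15.2 (−1.56 ± 0.45, adjusted p = 0.00715), and Rpl38 (−1.36) was lower too. With total-count scaling 7 were higher and 20 lower and the median was −0.14. The higher count was 8 without sorted-cell replicates 2 or 3 or pull-down replicate 3. The lower count was 0 without pull-down replicate 1, 4 when either replicate 3 was left out, and 7 without sorted-cell replicate 2. Many ribosomal protein genes have near-identical processed copies, and reads of such copies cannot be assigned with certainty.

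Initiation factors were split, with 4 of 28 higher and 7 lower. Eif4a1 and Eif4a2 encode closely related helicases. Eif4a1 was at 133, 156 and 147 CPM in sorted cells and 299, 326 and 285 in pull-downs (1.06 ± 0.20, adjusted p = 4.48e-05). Eif4a2 was at 52.3, 74.8 and 95.3 CPM against 23.5, 18.5 and 28.7 (−1.56 ± 0.31, adjusted p = 7.07e-05), so the pair lay on opposite sides, each without overlap. Eif5b, which joins the subunits, was lower (−1.50 ± 0.21, adjusted p = 5.23e-08). Elongation factors and other genes with a terminal oligopyrimidine start were higher in 8 of 23 and lower in 1, with Eef2 among the higher ones (0.90 ± 0.18, adjusted p = 7.57e-05). Their median was 0.22. With total-count scaling 6 of these 23 were higher and 4 lower, with a median of −0.04. Under the same scaling 2 initiation factors were higher and 10 lower.

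Genes of energy metabolism, the proteasome and the cytoskeleton had more calls higher than lower, a balance that for some lists depended on the scaling. Among 81 genes for oxidative phosphorylation, 24 were higher and 1 was lower (median 0.28), of 74 mitochondrial ribosomal protein genes 22 were higher and 3 lower (median 0.28), and of 32 proteasome genes 8 were higher and 2 lower (median 0.26). Of 19 glycolysis genes 8 were higher and 1 lower (median 0.60), and of 26 actin and tubulin genes 11 were higher and 1 lower (median 0.54). Aldoa, a glycolytic aldolase, was at 154, 166 and 165 CPM in sorted cells and 551, 422 and 509 in pull-downs (1.62 ± 0.19, adjusted p = 4.70e-10). Cfl1, which severs actin filaments, was at 816, 688 and 667 CPM against 2107, 2032 and 2187 (1.54 ± 0.17, adjusted p = 2.02e-10). Actb, the actin gene often used as a reference, was at 7568, 7660 and 6583 CPM against 8400, 6984 and 9342, with overlap (0.18 ± 0.21, adjusted p = 0.546). These groups are also abundant in brain outside microglia, as Aldoa was at a mean of 1479 CPM in whole-brain IgG1 pull-downs. Among the genes higher in LPS sorted cells than in IgG1, only 2 oxidative phosphorylation genes remained (0 called), 5 of 21 mitochondrial ribosomal protein genes were higher and 2 lower, and 2 of 17 proteasome genes were higher and 2 lower (median −0.10). With total-count scaling 12 oxidative phosphorylation genes were higher and 1 lower, 9 mitochondrial ribosomal protein genes higher and 6 lower, 5 proteasome genes higher and 4 lower, 5 glycolysis genes higher and 1 lower, and 9 actin and tubulin genes higher and 3 lower. Without sorted-cell replicate 2 the mitochondrial ribosomal protein count was 12, and without sorted-cell replicate 1 the glycolysis count was 5.

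The other lists are given beside the shares over all genes, 16.6% higher and 15.2% lower. Iron handling genes were higher in 4 of 12 and lower in 3. Ftl1, the ferritin light chain, was at 779, 1291 and 1076 CPM in sorted cells and 585, 718 and 622 in pull-downs (−0.71 ± 0.21, adjusted p = 0.00651), and the ferritin heavy chain Fth1 had the same sign without passing the test (−0.33 ± 0.17, adjusted p = 0.124). Both are known to be held off ribosomes by iron regulatory proteins when iron is scarce. Aco1, which encodes such a protein, was higher (1.05) and Ireb2, which encodes the other, lower (−1.30). The higher count was 2 without pull-down replicate 1. Genes of the integrated stress response were higher in 3 of 15 and lower in none. Slc3a2, a chain of amino acid transporters, was at 425, 367 and 336 CPM against 1030, 896 and 938 (1.34 ± 0.16, adjusted p = 2.95e-09), and its regulator Atf4 was at 296, 331 and 252 CPM against 237, 222 and 209 (−0.40 ± 0.19, adjusted p = 0.0953). Both Atf4 and Fth1 passed as lower with total-count scaling and in the fit on the 6 libraries, and Atf4 also with a minimum count of 30. Genes of the secretory translocon, which carries new proteins into the endoplasmic reticulum, had 4 of 26 higher and 3 lower, no more than the shares over all genes. With DESeq2's size factors 7 of them were higher, and with total-count scaling 2 were higher and 5 lower. A single heat shock gene of 18, Hspe1, was higher (0.78), and with total-count scaling none was higher and 2 were lower. With the replicate number as a block in the fit, 2 were higher and 2 lower. Replication histones, whose messages lack a poly(A) tail, had 3 of 11 in each direction, and none was higher without pull-down replicate 3. The cell cycle genes Mcm3 and Mcm5 were higher among 8 tested. Only 1 or 0 of them was called without any single one of the 3 sorted-cell replicates or pull-down replicates 1 and 2. None of the 2 structural noncoding RNA genes tested was called, and the table listed no mitochondrially encoded gene.

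Many neuronal and oligodendrocyte genes, and fewer genes of other brain cells, were called higher in the pull-downs. The 12 highest genes by the same rule as for the 12 lowest were Hbb-b1, Hbb-bs, Cck, Cdk5r2, Aplp1, Sncb, Hba-a1, Hba-a2, Snurf, Snrpn, Nrgn and Ptgds, from 4.44 to 3.29, which are genes of red blood cells, neurons and oligodendrocytes or meninges. Snurf and Snrpn are read from 1 transcript and had the same counts. Of 25 neuronal genes 17 were higher and none lower, with a median of 2.20. In the fit on the 6 libraries, where 7901 genes in all passed the filter, 11 neuronal genes were higher. Cck, a neuropeptide, was at 5.50, 9.69 and 12.6 CPM in sorted cells and 123, 77.7 and 132 in pull-downs (3.69 ± 0.32, adjusted p = 8.4e-14). Nrgn, a calmodulin-binding protein of synapses, was at 49.5, 72.0 and 68.7 CPM against 588, 407 and 848 (3.31 ± 0.28, adjusted p = 1.32e-11). Snap25, a protein of vesicle fusion, was at 18.3, 26.3 and 29.4 CPM against 113, 85.1 and 127 (2.20 ± 0.69, adjusted p = 0.018), a call lost without sorted-cell replicate 1 (adjusted p = 0.0712) or pull-down replicate 3 (adjusted p = 0.0683) and in the fit on the 14 sorted libraries (adjusted p = 0.0517). The groups did not overlap for these genes. The means in whole-brain IgG1 pull-downs of PBS mice were 865 CPM for Cck, 6291 for Nrgn and 520 for Snap25, higher than in either sorted preparation.

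The summed level of the 25 neuronal genes was 218 to 359 CPM in sorted cells, 1095 to 2022 in pull-downs from sorted cells and 15290 to 23370 in whole-brain IgG1 pull-downs. No neuronal gene was at 0 throughout the sorted-cell libraries. Oligodendrocyte genes were higher in 11 of 19 and none was lower, with sums of 170 to 302 CPM against 577 to 801 and 5166 to 5666 in IgG1. This count was 4 without sorted-cell replicate 1 and 5 without pull-down replicate 3. Mobp, Opalin and Pdgfra had no read in sorted cells, and Ermn, Aspa and Cspg4 had none in pull-downs. Astrocyte genes were higher in 7 of 16 and lower in 1, Glul, whose call depends on single libraries as given above, while the sums overlapped (1074 to 1381 against 988 to 1484 CPM). In bulk libraries, fewer cells of a type and less RNA per cell cannot be told apart. The part of RNA from other cells in the results for genes that they share with microglia was not tested.

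**Figure D4:**
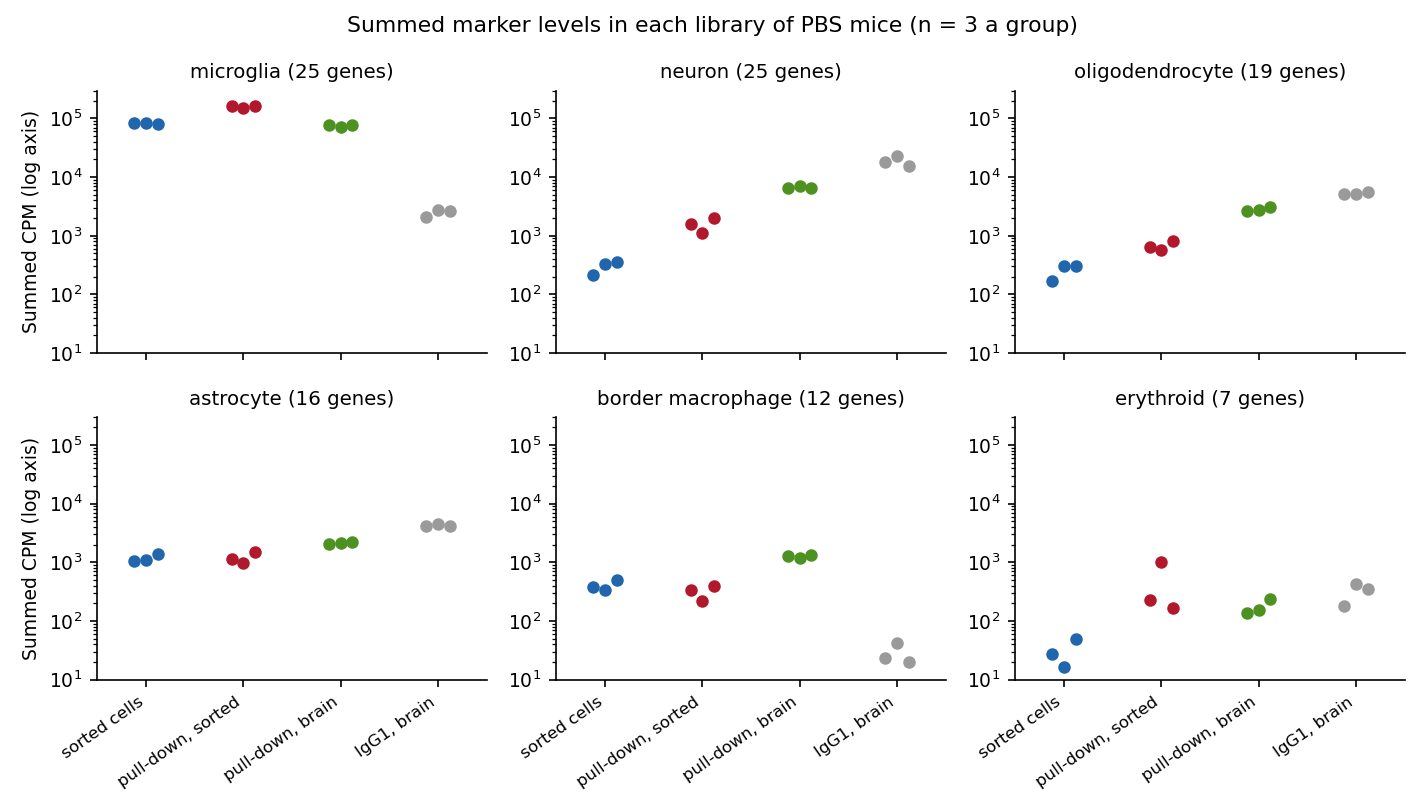
Summed level of 6 marker lists on a log axis in each PBS library, for sorted cells, pull-down from sorted cells, pull-down from whole brain and IgG1 pull-down from whole brain (3 libraries each). Neuronal sums rise from 218 to 359 CPM in sorted cells to 1095 to 2022 in their pull-downs and to 15290 to 23370 in IgG1, whereas microglial sums are lowest in IgG1.

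Blood and border cells were looked for as well. Ttr, a secreted protein of the choroid plexus, was at 67.8, 208 and 142 CPM in sorted cells and 588, 1506 and 720 in pull-downs (2.76 ± 0.57, adjusted p = 9.66e-04). Of 4 ependymal and choroid plexus genes Ttr and Kl were higher, with sums of 68.8 to 209 CPM against 598 to 1521, and 1 was called without sorted-cell replicate 1 or 2 or pull-down replicate 1 or 2. Hemoglobin genes were higher in all 4 cases called, and Hbb-bs was at 3.67, 1.38 and 8.41 CPM against 60.6, 248 and 35.4 (4.44 ± 1.38, adjusted p = 0.0183). Pull-down replicate 2 was the highest for both. Without it Hbb-bs was at 3.41 with an adjusted p of 0.107, and none of the erythroid genes was called without it or without sorted-cell replicates 1 or 2. Hbb-bs and Hbb-b1 are near-identical copies with the same counts, so their reads cannot be assigned to either. Border macrophage genes had 0 of 12 called. Their median was 0.81, but −0.43 without genes at 3 reads or fewer in both groups, and their sums overlapped (334 to 491 CPM in sorted cells, 218 to 401 after pull-down). Cd163, Lyve1, Ms4a7, Cd209f and Cd36 had no read in sorted cells, and Mrc1 was at 7.33, 15.2 and 7.01 CPM against 7.82, 7.40 and 5.06 (−0.54 ± 0.68, adjusted p = 0.583). Erythroid sums were 16.6 to 49.1 CPM before and 165 to 1014 after pull-down, and Alas2 and Slc4a1 had no read in sorted cells. Of 12 endothelial and mural genes 4 were higher, with sums of 446 to 538 CPM against 688 to 954, and 2 were called without sorted-cell replicate 1. Cldn5, a tight junction protein of vessels, had 1 read in sorted cells and 11 in pull-downs, a ratio of 20.2 (exact 95% interval 2.94 to 870). Of 5 neutrophil and monocyte genes 3 were higher, with sums of 5.54 to 14.02 CPM against 31.3 to 96.2, and 1 was called without sorted-cell replicate 2 or pull-down replicate 2. Elane, Mpo and Mmp8 of this list had no read in either group. S100a8 had 4 and 14 reads and was not tested. Of 2 lymphocyte genes tested Il7r was lower (−1.04), a call lost without pull-down replicate 1 or 3. The T and B cell genes Cd3e and Cd79a had no read in either group.

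The level in IgG1 pull-downs was set against that in the sorted-cell libraries. Among the 1905 higher genes the mean in whole-brain IgG1 pull-downs of PBS mice exceeded that in sorted cells for 65.5%, against 43.8% of all genes and 7.47% of the 1740 lower genes. The same sorted-cell libraries entered the calls, so part of this contrast is fixed by the selection. Limiting the count to the 5289 genes higher in sorted cells than in IgG1 of LPS mice left 576 higher (10.9%) and 1408 lower (26.6%), with a median of −0.30. That limit favours genes with a high level in sorted cells. With the 4305 genes higher in whole-brain pull-down than in IgG1 of LPS mice, 870 (20.2%) were higher and 570 (13.2%) lower. The calls are those of the main fit, so list counts in a subset only show which genes remained. All 25 microglial genes were in the first subset, so their counts of 13 higher and 5 lower had to be the same. There 16 of 30 lysosomal genes were higher and 1 lower, and 9 of 16 antigen presentation genes were higher and 1 lower. Of 36 splicing regulators 3 were higher and 25 lower. No neuronal gene was in that subset, whose rule drops genes with a higher level in whole-brain IgG1. Cytosolic ribosomal protein genes had 3 of 48 higher and 10 lower there, with a median of −0.28.

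Within that subset the 12 highest genes, chosen after their values were seen, were Sod2, C1qc, Lpxn, Gp9, Cdkn1a, Sco2, Nagpa, H2-Oa, Crlf2, Snrpb, Slc16a3 and Tbcc, from 1.78 to 1.50. Lpxn, a focal adhesion protein of leukocytes, was at 127, 114 and 118 CPM in sorted cells and 305, 355 and 454 in pull-downs (1.64 ± 0.19, adjusted p = 1.09e-09). Gp9, a glycoprotein known from platelets, was at 123, 119 and 95.3 CPM against 334, 415 and 287 (1.59 ± 0.21, adjusted p = 1.27e-08). Snrpb, a core protein of the spliceosome, was at 177, 183 and 188 CPM against 514, 489 and 560 (1.52 ± 0.18, adjusted p = 1.60e-09). The groups did not overlap at these genes.

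The same comparison in mice that had received LPS (2.5 mg/kg, 3 h, 4 libraries a group) used other mice and shares no library with the one in PBS mice. There 3652 genes (31.9%) were called, 1745 higher (15.2%) and 1907 lower (16.7%). The calls met in 1120 genes higher in both and 1224 lower in both, which is 58.8% of the genes higher in PBS and 64.2% of those higher in LPS, and 70.3% of those lower in PBS and 64.2% of those lower in LPS. A single gene was called in opposite directions, Pisd. Over all 11444 genes, fold changes in PBS and LPS had a Pearson r of 0.61 and a Spearman rho of 0.71. Over the 4470 genes whose mean reached 50 CPM in a PBS group these were 0.89 and 0.88. These are correlations across genes that share libraries within each set.

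**Figure D5:**
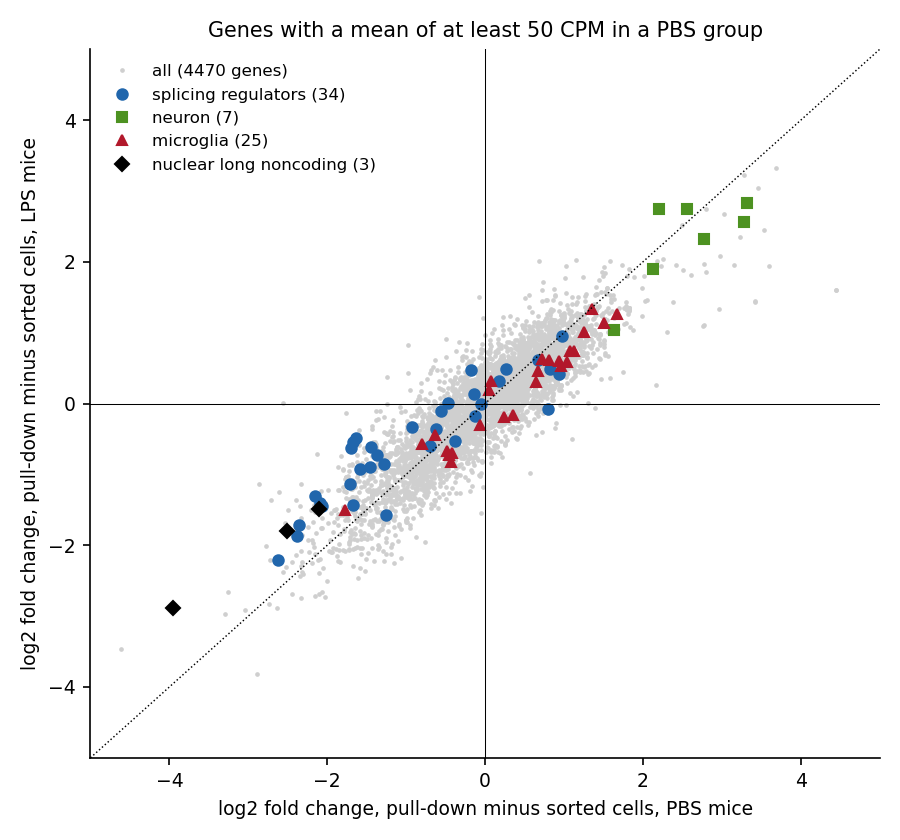
Log2 fold change, pull-down minus sorted cells, in PBS mice (horizontal) and LPS mice (vertical) for the 4470 genes whose mean reached 50 CPM in a PBS group. Splicing regulators (blue), neuron genes (green), microglia genes (red) and nuclear long noncoding RNAs (black) are marked, and the dotted diagonal is equality. The splicing regulators lie mostly in the lower left and above the diagonal.

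The test of the difference between LPS and PBS called no gene with edgeR after adjustment, with 761 genes (6.65%) at an unadjusted p under 0.05, and 5 genes with DESeq2. Splicing regulators were lower in 25 of 38 in PBS and in 22 of 38 in LPS mice, with medians of −1.26 and −0.57. At an unadjusted p under 0.05 the contrast was higher in LPS for 10 of these 38 and lower for none, beside 354 and 407 over all genes. Srsf7 was at −1.67 in PBS and −0.54 in LPS, a difference of 1.13 with an adjusted p of 0.134. Akap8l, an RNA-binding nuclear protein outside the list, was at 411, 410 and 582 CPM in PBS sorted cells and 164, 115 and 172 in pull-downs (−1.60 ± 0.19), against −0.38 in LPS, a difference of 1.22 with an adjusted p of 0.111. Pisd, a mitochondrial enzyme of phospholipid synthesis, was at 223, 264 and 257 CPM against 172, 226 and 143 in PBS, with overlap (−0.49 ± 0.19, adjusted p = 0.0431), and at 0.66 in LPS. The adjusted p of its difference was 0.111. DESeq2 called Akap8l, Srsf7, Pisd, Ddx17 and Srsf6 with adjusted p values from 0.00729 to 0.0243, and a fit on the 14 sorted libraries alone called the same 5.

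Other lists are given by their values in PBS and LPS mice, without a test of the lists. Neuronal genes had medians of 2.20 in PBS and 2.32 in LPS, with 17 and 16 of 25 higher. Lysosomal genes had 18 and 14 of 34 higher, antigen presentation genes 10 and 9 of 19, and microglial genes 13 and 12 of 25 higher with 5 and 7 lower and medians of 0.64 and 0.32. Cytosolic ribosomal protein genes had 13 and 16 of 74 higher and 11 and 3 lower, but the 11 became 0 without PBS pull-down replicate 1. At an unadjusted p under 0.05 the contrast was higher in LPS for 9 of the 74 and lower for none. Over all 11444 genes these counts were 354 and 407, and none passed adjustment with edgeR. Medians were further apart for iron handling genes (0.29 and −0.24), erythroid genes (3.42 and 1.60) and the 4 ependymal and choroid plexus genes (2.53 and 0.55, with 2 and 0 called). Single libraries weigh on the last of these lists. Erythroid sums were 583 CPM in LPS sorted-cell replicate 4, against 17.6 to 47.3 in the others, and 1014 in PBS pull-down replicate 2, against 231 and 165. Ependymal and choroid plexus sums ran from 127 to 812 CPM within LPS sorted cells. P2ry12 passed the test in LPS mice (−0.70 ± 0.17) and not in PBS mice (−0.42 ± 0.19), and the difference had an adjusted p of 0.895. Malat1 (−1.80), Neat1 (−1.49) and Kcnq1ot1 (−2.88) were lower in LPS mice as well.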

How the data were processed

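The authors deposited raw read counts per gene over exons for the 28 libraries of the LPS experiment. Per the submitters' processing notes, bcl2fastq, HISAT 0.1.5, HOMER and the mm9 build were used, and the annotation, the strand setting and the treatment of duplicates are not given in the sources used here. Every sample column of the table matched a labelled library.

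From the deposited counts, genes were kept by edgeR's filter with a minimum count of 10, scaled with TMM and fitted with edgeR 4.0.16 (R 4.3.3) as 8 groups over the 28 libraries, which share the estimate of the spread. The contrasts were pull-down minus sorted cells in PBS mice, the same in LPS mice, and their difference. Genes were called at a Benjamini-Hochberg adjusted p under 0.05 over the 11444 genes tested. CPM values use the TMM-scaled library sizes. Where a group held at most 3 reads, a floor of 3 reads or an exact 95% interval was given, covering counting error only. The script was tested on simulated data.

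The members and the 40 gene lists were chosen with earlier results of these data known. Named genes are the 12 largest and 12 smallest fold changes among called genes whose groups did not overlap and whose higher group averaged 50 CPM or more, up to 3 genes per list by smallest p, and a set of fixed marker genes. Other list members are given by their fold change, and exceptions are stated where they occur. Some genes that the rule names are not reported here. Alternatives were DESeq2 1.42.0, other scalings and count filters, fewer libraries in the fit, a replicate block, and leaving out each library.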

Additional observations from a re-analysis of the deposited data

Results flagged for a closer look

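In groups of 4 libraries, a library was singled out when its gap to the nearest other was above Dixon's 95% critical value for the range of the group. Chance alone singles out about 1 in 20 groups, and here 5 of 78 were. All 5 lie in LPS mice, and the PBS groups, with 3 libraries each, were not examined this way. Zfp36 was at 961.8 CPM in LPS sorted-cell replicate 1 and at 1181 to 1200 in the other replicates. The same library had a summed neuronal level of 414.4 CPM, against 221.8 to 250.7. LPS sorted-cell replicate 4 had a summed erythroid level of 583.3 CPM, against 17.59 to 47.31. Apoe was at 5824 CPM in LPS pull-down replicate 2 and at 2640 to 3048 in the others. Mrc1 was at 5.568 CPM in LPS pull-down replicate 1 and at 0 in the other replicates. Where all other libraries are at 0, the rule singles out any library with a read. The Mrc1 flag was therefore fixed by the zeros and cannot be set against the rate by chance.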

How the results depend on the processing

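With total-count scaling 1203 genes were higher and 2622 lower in PBS mice, against 1905 and 1740, and the median of all genes moved from 0.04 to −0.20. The difference between LPS and PBS mice had 0 genes called in the main fit, 4 with total-count scaling, 5 with DESeq2 and 5 on the 14 sorted libraries. Leaving out each library in turn gave 2657 to 3328 called genes in PBS mice (1323 to 1817 higher, 1287 to 1548 lower) and 2932 to 3586 in LPS mice (1417 to 1706 higher, 1515 to 1880 lower). For the difference it gave 0 to 2, all higher in LPS, with Akap8l called without LPS sorted-cell replicate 1, Akap8l and Pisd without LPS pull-down replicate 3, and Akap8l and Tle3 without PBS sorted-cell replicate 1. Limits on the genes counted, chosen after seeing the data, gave 576 higher and 1408 lower genes in the first limit and 870 higher and 570 lower in the second. Fewer genes enter each, and the shares moved as well. Of 143 named genes that were called, 119 were called under every alternative with a value, and none reversed. Across the alternatives, 69.3% to 98.8% of the PBS calls were shared, none in the opposite direction. The cause of the other changes was not tested. Low totals in the pull-downs limit genes with few reads.

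Replicate numbers were checked for pairing. The set rule for taking them as pairs was a correlation over 0.1 in every same-numbered pair. Deviations of same-numbered sorted and pull-down libraries correlated at 0.03 to 0.156 over 7 pairs, with 3 over 0.1, so the main fit did not use pairs. The sample titles number sorted and pull-down libraries alike, in a running series over PBS and LPS mice. A pairing by mouse is therefore possible, and the main fit leaves it out. As a hint from the data, all 7 sorted libraries correlated best with the pull-down of their own number, and 6 of 7 pull-downs did so in turn. With the replicate block 3843 genes were called in PBS mice (1994 higher, 1849 lower), 3675 in LPS mice (1754 higher, 1921 lower) and 0 for the difference. It kept 98.8% of the PBS calls of the main fit. Among the lists it moved heat shock genes to 2 higher and 2 lower, from 1 and 0, and lower elongation factor genes from 1 to 2.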
